A study of Mus musculus with 6 samples.

Results

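The RNA of 10 genes whose proteins coat, build or reshape lipid droplets was followed in mouse adipocytes differentiated in culture, with and without activated Cre recombinase at a floxed Tcf7l2 gene. The genes were chosen by name: the perilipins Plin1, Plin2, Plin3, Plin4 and Plin5, the CIDE genes Cidea and Cidec, the endoplasmic reticulum genes Fitm2 and Bscl2, and Hilpda. The choice was made with earlier results of these data known. All 10 had a row among the 49671 genes of the count table, and all 10 passed the filter on low counts that left 14946 genes for testing. The knockout group was 3 libraries from cells given 4-hydroxytamoxifen, and the control group was 3 libraries from cells given ethanol, both for 24 h, starting 2 days ahead of differentiation. Every library came from the same kind of cell: preadipocytes of the inguinal fat of C57BL/6 mice aged 3 months with both Tcf7l2 alleles floxed, sorted as positive for CD34, Sca1 and CD29 and negative for CD31, CD45 and Ter-119, immortalised with SV40 large T antigen and carrying retroviral CreERT2; whether the line is a clone is not stated. The control cells, which the labels call wild type, therefore carry the floxed alleles, large T antigen and CreERT2 too. All cells were differentiated with dexamethasone, 0.5 mM isobutylmethylxanthine and insulin until day 8, with a further agent at 5 nM whose code number goes up by 1 with each library; the labels leave unclear whether it was the same agent throughout. Deletion and 4-hydroxytamoxifen coincide in every library, so their parts cannot be told apart. The control libraries are numbered first, so a real difference in the 5 nM agent would also run with the groups. Its part could not be told apart either. The labels do not state separate cultures within a group, so a p-value here speaks only of the spread among these 6 libraries, part or all of which may be technical.

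A lipid droplet is a store of triglyceride and sterol ester wrapped in a single layer of phospholipid. It buds from the endoplasmic reticulum, where seipin (the product of Bscl2) sits at the neck of the growing droplet and FIT2 (the product of Fitm2) is needed for droplets to emerge into the cytosol. Perilipins then cover the surface and set how far lipases reach the fat, and CIDE proteins pass lipid between touching droplets so that large ones grow at the cost of small ones, the route to the single large droplet of white fat. Only the perilipins are coat proteins in the narrow sense; the other genes act in droplet birth, fusion or lipase control.

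Libraries held 26621293 to 33484764 counts. The first principal component separated the groups, and the second (15.9% of the variance) had knockout replicate 2 and control replicate 3 at one end and the remaining 4 libraries at the other. Tcf7l2 itself was at 6.12 ± 0.638 CPM in knockout and 7.65 ± 1.49 CPM in control cells (SD, n = 3 each; CPM are counts scaled to library size with TMM) and missed the threshold (log2 fold change -0.32 with SE 0.14, adjusted p = 0.125 by edgeR), though it was called without control replicate 2 (-0.46, adjusted p = 0.0322; 0.0322 to 1 over all alternatives). Since exons were not counted one by one, the excision itself was not measured here. The adipocyte markers were abundant, as the label of differentiated cells asks: the 12 genes summed to 11030 to 13350 CPM in knockout and 8558 to 8739 CPM in control libraries. The largest part of the sum was Fabp4, at 6869 CPM in knockout and 4391 CPM in control cells. Of the 12 genes, 10 rose (all but Lpl and Car3), while 11.9% of all genes tested were called higher. The 10 preadipocyte markers were present as well, with a summed level of 3572 to 3703 CPM in knockout and 3475 to 3708 CPM in control libraries; Ccn5 rose 1.47-fold (89.5 ± 5.24 CPM in knockout, 60.8 ± 8.81 CPM in control cells, edgeR adjusted p = 0.00285), and the other 9 were not called. Defining markers of erythroid, immune and epithelial cells were at or near 0: the summed level of 5 erythroid markers was at most 0.0373 CPM in knockout and 0.0595 CPM in control libraries, that of 4 epithelial markers at most 0.234 CPM in knockout and 0.212 CPM in control libraries, and that of 6 immune markers at most 2.07 CPM in knockout and 1.64 CPM in control libraries, nearly all of it Cd68. Of the 5 endothelial markers, Pecam1, Cdh5 and Emcn were at 0.159, 0.0124 and 0.0435 CPM in knockout and 0.0936, 0.0225 and 0.104 CPM in control cells, while Kdr rose 1.3-fold (17.6 ± 0.756 CPM in knockout, 13.6 ± 1.02 CPM in control cells). Tek was not called, at 9.35 ± 0.148 CPM in knockout and 10.2 ± 0.723 CPM in control cells (log2 fold change -0.13, edgeR adjusted p = 0.354). The smooth muscle and mural markers, led by Acta2 and Tagln, summed to 779 to 843 CPM in knockout and 739.5 to 789 CPM in control libraries. The scarce Rgs5 was the 1 of these 5 that rose, 1.61-fold (1.89 ± 0.389 CPM in knockout, 1.18 ± 0.0926 CPM in control cells, edgeR adjusted p = 0.0229). Of 5 skeletal muscle markers 1 was tested, Des, at 7.74 ± 0.914 CPM in knockout and 4.11 ± 0.549 CPM in control cells (log2 fold change 0.92, edgeR adjusted p = 0.000184), while Myod1, Myog, Ckm and Myh1 averaged at most 0.203 CPM in knockout and 0.236 CPM in control cells. What these other markers add to the results on lipid droplet genes was not tested.

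In the annotation (GENCODE M21, build GRCm38) Plin3, Plin4 and Plin5 lie on chromosome 17, and Plin4 (chr17:56100591-56109803) and Plin5 (chr17:56111601-56117596) are direct neighbours on the minus strand, 1797 bases apart. Plin1 is at chr7:79720218-79732903 and Plin2 at chr4:86648386-86670060, both on the minus strand. Cidec (chr6:113424634-113435760, minus strand) and Hilpda (chr6:29272488-29275446, plus strand) share chromosome 6. Bscl2 is at chr19:8837467-8848683 on the plus strand, and Fitm2 at chr2:163466379-163472629 and Plin3 at chr17:56277476-56292873, both on the minus strand. The Ensembl identifiers in the count table are ENSMUSG00000030546 (Plin1), ENSMUSG00000028494 (Plin2), ENSMUSG00000024197 (Plin3), ENSMUSG00000002831 (Plin4), ENSMUSG00000011305 (Plin5), ENSMUSG00000024526 (Cidea), ENSMUSG00000030278 (Cidec), ENSMUSG00000048486 (Fitm2), ENSMUSG00000071657 (Bscl2) and ENSMUSG00000043421 (Hilpda). RefSeq promoter windows (GRCm38.p6, 250 bases before to 50 after an annotated start) were found for 9 of the 10 genes, 14 windows in all. Windows of 5 genes are printed 5′ to 3′ on the strand of the gene, since they set the 2 members closest to each other in response (Plin1 and Cidec) beside the most abundant perilipin gene (Plin2), the perilipin gene with the largest change (Plin5) and a gene that did not pass the test (Hilpda). Capitals mark the single receptor site of PPAR and RXR, AGGTCA, and the core of the hypoxia response element in both spellings, ACGTG and GCGTG, on either strand.
Plin1, chr7:79732727-79733026, minus strand: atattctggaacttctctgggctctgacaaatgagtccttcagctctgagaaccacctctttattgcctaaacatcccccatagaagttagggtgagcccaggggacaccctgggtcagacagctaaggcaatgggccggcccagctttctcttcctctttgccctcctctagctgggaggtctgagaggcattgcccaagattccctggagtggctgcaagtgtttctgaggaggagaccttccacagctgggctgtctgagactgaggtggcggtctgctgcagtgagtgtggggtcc
Cidec, chr6:113435711-113436010, minus strand: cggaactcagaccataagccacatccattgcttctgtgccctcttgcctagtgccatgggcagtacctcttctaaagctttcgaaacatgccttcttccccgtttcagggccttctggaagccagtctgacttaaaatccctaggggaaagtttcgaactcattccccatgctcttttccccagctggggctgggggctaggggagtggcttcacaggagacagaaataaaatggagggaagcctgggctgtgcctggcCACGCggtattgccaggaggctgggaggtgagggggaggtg
Plin2, chr4:86670010-86670309, minus strand: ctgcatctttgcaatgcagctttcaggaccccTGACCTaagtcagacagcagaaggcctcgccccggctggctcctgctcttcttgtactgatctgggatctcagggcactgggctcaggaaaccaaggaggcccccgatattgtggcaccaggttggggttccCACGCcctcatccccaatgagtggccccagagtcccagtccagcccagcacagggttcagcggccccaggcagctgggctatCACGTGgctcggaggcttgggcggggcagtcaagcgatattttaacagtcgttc
Plin5, chr17:56117499-56117798, minus strand: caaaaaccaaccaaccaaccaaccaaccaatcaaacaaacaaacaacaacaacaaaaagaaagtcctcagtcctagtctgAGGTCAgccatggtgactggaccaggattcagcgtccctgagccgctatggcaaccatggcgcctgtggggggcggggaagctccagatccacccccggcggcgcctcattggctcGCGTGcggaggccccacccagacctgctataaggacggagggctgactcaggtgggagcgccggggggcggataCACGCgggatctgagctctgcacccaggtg
Hilpda, chr6:29272376-29272675, plus strand, the downstream of its 2 annotated starts: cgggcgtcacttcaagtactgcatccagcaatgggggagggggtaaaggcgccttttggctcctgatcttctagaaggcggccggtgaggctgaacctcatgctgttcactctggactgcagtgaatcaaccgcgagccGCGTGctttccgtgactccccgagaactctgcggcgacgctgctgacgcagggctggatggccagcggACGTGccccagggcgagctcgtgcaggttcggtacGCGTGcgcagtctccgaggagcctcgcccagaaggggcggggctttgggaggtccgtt
The Plin1 window held none of these motifs. In the Plin2 window ACGTG was matched on both strands at overlapping places, which together spell CACGTG and begin 4 bases before the start. Over all 14 windows AGGTCA was found in 4, of Plin2, Plin5 and Bscl2, and it occurs in 16.3% of all 32851 promoter windows. ACGTG was found in 2 windows, of Plin2 and Hilpda (19.6% of all windows), and GCGTG in 9 windows of 6 genes: Plin2, Plin5, Cidec, Fitm2, Bscl2 and Hilpda (32.4% of all windows). The windows of Plin5 overlap each other, as do those of Hilpda. A GCGTG site in each overlap was counted in both windows, so the 9 windows are not independent. The GC content of the 14 windows ran from 49.3% to 69.3%, against a median of 52.7% over all windows. The shares over all windows count windows, not genes, and were not matched for GC content. The full direct repeat of PPAR and RXR, AGGTCANAGGTCA with N for any base, was in none of the 14 windows and in 0.0396% of all windows, and the TCF/LEF core CTTTGAT was in none of the 14 and in 3.73% of all. A match is a run of letters in this window and no measure of binding.

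Of the 10 genes, 8 were higher in knockout cells, 0 were lower and 2, Plin3 and Hilpda, were not called (edgeR quasi-likelihood test, Benjamini-Hochberg adjusted p under 0.05 over all genes tested). Over all genes tested, 11.9% were called higher by the same rule, 10.5% lower and 22.4% in either direction. Since the 10 genes were chosen with earlier results of these data known, these shares are a background and no independent test. The median log2 fold change was 0.62 over the 10 genes, against -0.0017 over all genes tested. In all 8 risen genes every knockout library lay above every control library, a pattern that 18.5% of all tested genes showed, and in none of the 10 genes did every knockout library lie below every control library, as in 19.3% of all tested genes. A fitted rise of at least 1.5-fold was seen in 6 of the 10 genes, against 5.47% of all tested genes. None of the scalings, filters, other tools (DESeq2, limma-voom) and left-out libraries tried ended the call of any of the 8, but a stricter edgeR test against a log2 fold change of 0.5 called 2 of them, Plin1 and Cidec; 1.14% of all tested genes were called higher by that test. In these bulk libraries a larger share of fat-laden cells and more RNA per cell cannot be told apart.

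**Figure D1:**
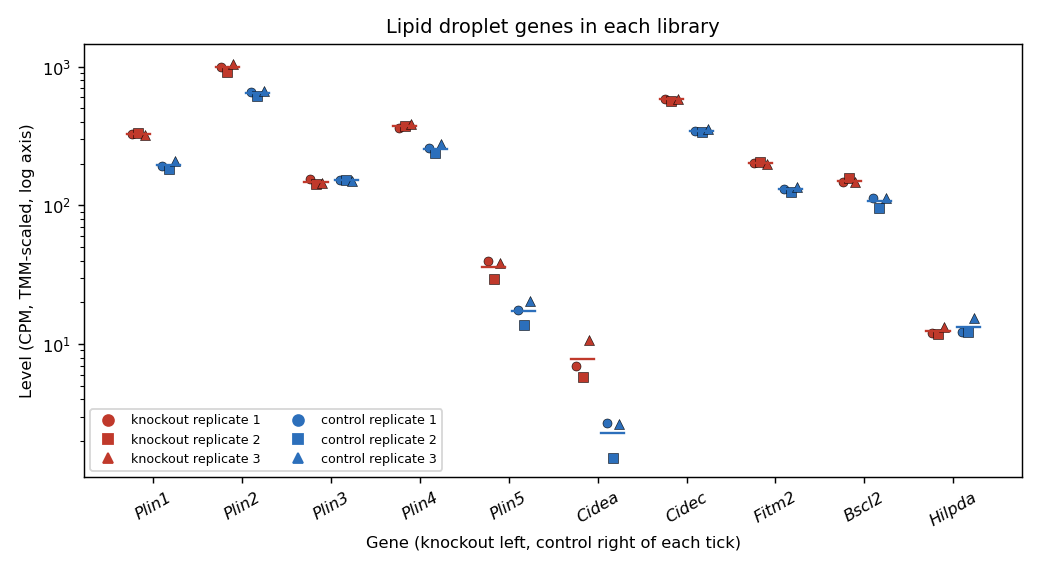
Level of each lipid droplet gene in each library (CPM scaled with TMM, log axis), knockout in red and control in blue, with the mean of each group as a line. The groups are apart in 8 genes, while those of Plin3 (143 to 156 CPM in knockout, 149 to 153 CPM in control libraries) and Hilpda (11.8 to 13.3 CPM in knockout, 12.2 to 15.4 CPM in control libraries) overlap.

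Plin1, the main coat protein of adipocyte droplets, which holds back lipolysis at rest by binding the lipase cofactor ABHD5, was at 326, 334 and 321 CPM in knockout libraries, against 192, 183 and 208 CPM in control libraries. The knockout values lay close together, and all were above the control values. The rise was 1.68-fold (log2 fold change 0.75, SE 0.053, edgeR adjusted p = 8.05e-07). Plin2, a perilipin of nearly all cell types whose protein is stable only when bound to lipid, was at 1000.1, 918 and 1049 CPM in knockout libraries, against 655, 613 and 671 CPM in control libraries, 1.53-fold higher (log2 fold change 0.61, SE 0.057, edgeR adjusted p = 5.76e-06). All 3 knockout libraries lay above all 3 control libraries, and knockout replicate 2 and control replicate 2 were the lowest of their groups. Plin4, which coats small new droplets in fat, was at 363, 372 and 383 CPM in knockout libraries, against 257, 237.0 and 274 CPM in control libraries, again with no overlap. It rose 1.46-fold (log2 fold change 0.54, SE 0.056, edgeR adjusted p = 1.25e-05).

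Plin5, the perilipin of oxidative tissues that ties droplets to mitochondria, was the least abundant perilipin per length and had the largest change in the family. It was at 39.4, 29.4 and 38.6 CPM in knockout libraries, against 17.6, 13.7 and 20.6 CPM in control libraries, and rose 2.07-fold (log2 fold change 1.05, SE 0.17, edgeR adjusted p = 0.00522). Its libraries spread more than those of the other perilipin genes, with a coefficient of variation of 15.5% in knockout and 19.9% in control cells, while the other 4 reached at most 6.66% in knockout and 7.32% in control cells. Knockout replicate 2, its lowest knockout library, still lay above control replicate 3, its highest control library.

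Plin3, a perilipin that moves between the cytosol and new droplets in most cells, was the perilipin gene that did not pass the test. It was at 156, 143 and 145 CPM in knockout libraries, against 153, 152 and 149 CPM in control libraries. The groups overlapped and the gene was not called (log2 fold change -0.04 with SE 0.048, adjusted p = 0.643 by edgeR), with log2 fold changes of -0.07 to -0.01 over all alternatives. Within a library, the log2 ratio of Plin3 to Plin2 was -2.74 ± 0.0994 in knockout and -2.09 ± 0.0782 in control libraries (SD, n = 3 each), with no overlap (exact 2-sided permutation test, p = 0.1, adjusted p = 0.16 over 8 ratios). With 3 libraries against 3 this test cannot give a p below 0.1, so no ratio could pass 0.05. Since Plin2 was called higher and Plin3 was not called, the ratio of Plin3 to Plin2 largely restates the rise of Plin2.

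Cidec, also called Fsp27, which drives droplet fusion in white fat, was at 582, 569 and 587 CPM in knockout libraries, against 342, 340.3 and 352 CPM in control libraries. The libraries of each group lay close together, with a coefficient of variation of 1.63% in knockout and 1.92% in control cells. The gene rose 1.68-fold (log2 fold change 0.75, SE 0.044, edgeR adjusted p = 3.465e-07). Cidea, the relative that marks brown and beige fat (chr18:67343604-67367785, plus strand), was scarce. It had 208, 181 and 289 counts in knockout libraries, against 91, 43 and 71 in control libraries, which is 6.96, 5.765 and 10.8 CPM in knockout and 2.71, 1.52 and 2.67 CPM in control libraries. It rose 3.36-fold (log2 fold change 1.75, SE 0.30, edgeR adjusted p = 0.00633). Its rise ranked 10 among all 14946 tested genes. Knockout replicate 3 was the highest and control replicate 2 the lowest of the 6 libraries, and with 1 library left out the log2 fold change ran from 1.46 to 1.93. Its coefficient of variation, 33.5% in knockout and 29.3% in control cells, was the highest of the 10 genes in both groups. The log2 ratio of Cidea to Cidec was -6.16 ± 0.416 in knockout and -6.98 ± 0.364 in control libraries (SD, n = 3 each), with no overlap (exact 2-sided permutation test, p = 0.1, adjusted p = 0.16). Of the 6 other brown and beige markers tested, 5 rose, while 11.9% of all genes tested were called higher. Ucp1 was not called, at 30 ± 9.28 CPM in knockout and 18.2 ± 5.29 CPM in control cells (edgeR adjusted p = 0.216). Among the 5, Otop1 lost its call without knockout replicate 1 (adjusted p = 0.0528 by edgeR). Ppargc1a lost its call in several fits with a library left out. For Cox8b, Elovl3 and Cox7a1 the calls under the alternatives were not examined.

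Of the genes that act where droplets are born, Fitm2 was at 200.3, 204 and 197 CPM in knockout libraries, against 131, 126 and 135 CPM in control libraries, with no overlap, and rose 1.54-fold (log2 fold change 0.62, SE 0.046, edgeR adjusted p = 1.14e-06). Bscl2, whose loss in humans causes congenital generalised lipodystrophy, was at 147, 158 and 146 CPM in knockout libraries, against 114, 95.4 and 114 CPM in control libraries. Control replicate 2 was the low library of its group, and the groups were apart. Its rise, 1.4-fold (log2 fold change 0.48, SE 0.067, edgeR adjusted p = 0.00019), was the smallest of the 8. The log2 ratio of Bscl2 to Fitm2 was -0.41 ± 0.0433 in knockout and -0.28 ± 0.1 in control libraries and overlapped between the groups (exact 2-sided permutation test, p = 0.2, adjusted p = 0.229). Both genes share exonic bases with other genes: 5.72% of the exonic bases of Fitm2 overlap the antisense gene 2310001K24Rik (0.7 ± 0.18 CPM in knockout and 0.306 ± 0.0842 CPM in control cells), and 6.75% of those of Bscl2 overlap Gng3 on the opposite strand (0.0797 CPM in knockout and 0.0343 CPM in control cells). A further 4.05% of those of Bscl2 overlap AC129217.1 on the same strand, which has no row in the count table.

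Hilpda, a small protein induced by low oxygen and by fatty acids that inhibits the lipase ATGL, was at 11.97, 11.8 and 13.3 CPM in knockout libraries, against 12.2, 12.3 and 15.4 CPM in control libraries. The groups overlapped and the gene was not called (log2 fold change -0.10 with SE 0.10, adjusted p = 0.517 by edgeR). Without control replicate 3, its highest library, its log2 fold change came to 0.0075 (adjusted p = 0.967 by edgeR; 0.397 to 1 over all alternatives). Relative to Plin2 it was lower in every knockout library: the log2 ratio of Hilpda to Plin2 was -6.27 ± 0.0521 in knockout and -5.56 ± 0.147 in control libraries (SD, n = 3 each; exact 2-sided permutation test, p = 0.1, adjusted p = 0.16). Since Plin2 was called higher and Hilpda was not called, this ratio largely restates the rise of Plin2.

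Library by library the risen genes moved in part together. Control replicate 2 was the lowest control library for all 8 risen genes, and control replicate 3 the highest for 7 of them, all but Cidea. The knockout libraries showed no such order: knockout replicate 2 was the lowest for 4 of the 8 and the highest for 3. How many of all genes tested share the order of the control libraries was not counted. Control replicate 3 also lay apart from the other controls on the second principal component of all genes tested. The order is thus a description and not shown to be particular to these genes. As a measure of likeness the log2 CPM of each gene was centred on its mean over the 6 libraries, and the root mean square distance between genes was taken. Plin1 and Cidec were the closest pair among the 10 genes, at a distance of 0.0501, and the log2 ratio of Plin1 to Cidec was -0.82 ± 0.0521 in knockout and -0.83 ± 0.0691 in control libraries (SD, n = 3 each; exact 2-sided permutation test, p = 1). Plin4 and Fitm2 followed at 0.0588. For Plin4 and Plin1, both of which rose, the log2 ratio of Plin4 to Plin1 was 0.19 ± 0.057 in knockout and 0.40 ± 0.0223 in control libraries, with no overlap (exact 2-sided permutation test, p = 0.1, adjusted p = 0.16). The log2 ratio of Plin5 to Plin2 was -4.78 ± 0.148 in knockout and -5.2 ± 0.22 in control libraries, also with no overlap (exact p = 0.1, adjusted p = 0.16). The log2 ratio of Plin1 to Plin2, -1.59 ± 0.126 in knockout and -1.73 ± 0.0427 in control libraries, overlapped (exact p = 0.2, adjusted p = 0.229).

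Among 10965 other genes whose log2 CPM averaged 2 or more, the nearest in pattern to Plin1 were Rasd1 (distance 0.029), Mgll, which encodes monoglyceride lipase (0.0322), and Klb, the co-receptor of the hormone FGF21 (0.0402). Klb was also near Cidec (0.0256), beside Sort1 (0.0249) and Tbc1d4 (0.026). Near Plin2 were Hsdl2 (0.0295) and Mgst3 (0.0344), and near Plin4 the mitochondrial citrate carrier gene Slc25a1 (0.0278) and Ptges (0.0345). The nearest to Plin5 were Slc25a34 (0.0451), Egln3 (0.0693) and Rgs4 (0.0695). The citrate synthase gene Cs (0.0239), Acbd4 (0.0251) and 4430402I18Rik (0.028) lay nearest to Fitm2, and Hopx (0.031), Ltc4s (0.0459) and Nudt13 (0.0493) nearest to Bscl2. No gene came as near to Cidea, for which the smallest distances were those of Serpinb6b (0.277), Otop1 (0.289) and Adap1 (0.31). These are descriptions over 6 libraries in 2 groups, and genes with a like difference between the groups lie near each other by construction.

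To compare genes with each other, CPM was divided by the length of the union of annotated exons in kilobases. On this length-scaled scale the 5 perilipin genes summed to 472 ± 21 in knockout and 318 ± 15.7 in control cells (SD, n = 3 each). Plin2 made up the largest share of the perilipin sum, 59.5% ± 1.35 in knockout and 57.8% ± 0.328 in control cells. These libraries did not overlap, but with the longest annotated transcript as the length they did (68.6% ± 1.33 in knockout and 67.7% ± 0.348 in control cells). The share of Plin3 was 8.27% ± 0.419 in knockout, against 12.6% ± 0.73 in control cells, and that of Plin5 3.62% ± 0.428 in knockout against 2.59% ± 0.393 in control cells, both without overlap between the groups. The share of Plin1 was 14.9% ± 0.971 in knockout, against 13.1% ± 0.316 in control cells, also without overlap, while that of Plin4, 13.7% ± 0.608 in knockout and 13.9% ± 0.345 in control cells, overlapped. The shares are descriptions with no test. In the longest Plin4 transcript, which codes for many copies of a short repeat, 17.4% of windows of 50 bases recur within the same transcript, against 0% for the other 9 genes. Of the windows of Plin2, 4.89% also occur in the pseudogene Gm12551 (0.1 CPM in knockout and 0.0442 CPM in control cells). Of those of Plin3, 1.25% occur in other genes, among them Ero1l (193 CPM in knockout and 218 CPM in control cells), and of those of Bscl2 2.55%, among them Dtx3l (175 CPM in knockout and 171 CPM in control cells) and Fkbp11 (18.4 CPM in knockout and 24.2 CPM in control cells). How reads that map to several places were counted is not given in the sources used here, so the level of Plin4 against other genes is uncertain, in both groups alike.

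**Figure D2:**
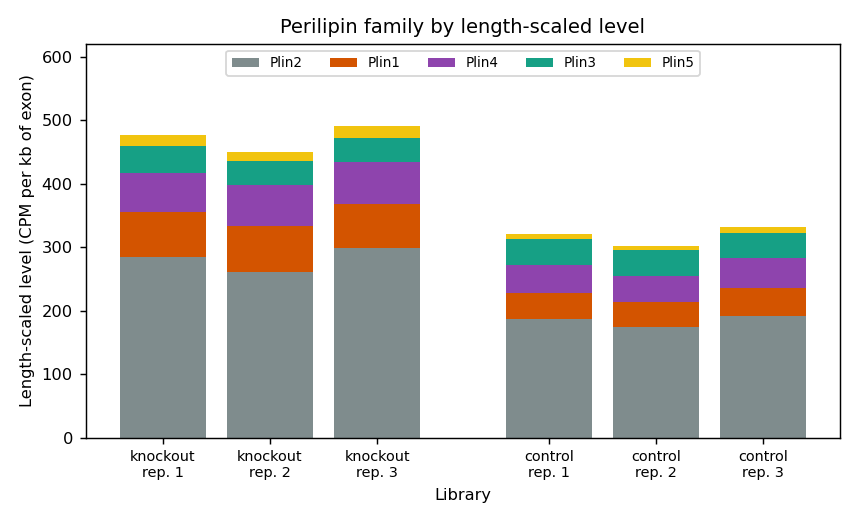
Length-scaled level (CPM per kilobase of exon) of the 5 perilipin genes in each library, stacked, with the 3 knockout libraries on the left and the 3 control libraries on the right. The sum is 449 to 490.2 in knockout and 302 to 333 in control libraries; the Plin3 block has nearly the same height in all of them (37.7 to 41.1 in knockout, 39.4 to 40.5 in control).

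Over all 10 genes the length-scaled level in knockout cells was highest for Cidec (312 ± 5.09) and Plin2 (281 ± 18.8), followed by Plin1 (70.3 ± 1.4), Plin4 (64.5 ± 1.7), Fitm2 (50.5 ± 0.873), Plin3 (39 ± 1.81), Bscl2 (25.5 ± 1.15), Plin5 (17.2 ± 2.65), Hilpda (11.2 ± 0.774) and Cidea (7.02 ± 2.35). In control cells Cidec (186 ± 3.56) and Plin2 (184 ± 8.51) overlapped. Plin1 (41.8 ± 2.79) overlapped with both Plin4 (44.3 ± 3.24) and Plin3 (40 ± 0.536), and these were followed by Fitm2 (32.9 ± 1.15), Bscl2 (18.2 ± 1.79), Hilpda (12.04 ± 1.66), Plin5 (8.28 ± 1.65) and Cidea (2.06 ± 0.605). Plin5 thus stood above Hilpda in knockout cells and below it in control cells, each time without overlap of the libraries. Parts of this order depended on the length used. With the longest annotated transcript Plin2 (523 in knockout, 342 in control cells) stood above Cidec (336.5 in knockout, 200.4 in control cells). By the same length Bscl2 (43.0 ± 1.95) came above Plin3 (40.5 ± 1.88) in knockout cells, with overlapping libraries, and Plin1 (68.9 ± 4.6) above Plin4 (44.45 ± 3.25) in control cells, without overlap.

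The members were then set beside other adipocyte genes of the same library, since those were higher in knockout cells as well. The mean log2 CPM of Adipoq, Fabp4, Pparg and Cebpa was 9.34, 9.21 and 9.27 in knockout libraries, against 8.77, 8.70 and 8.69 in control libraries, a difference of 0.555. Relative to this mean, Cidea was higher by 1.00 in log2, and Plin5 by 0.48. Plin1 and Cidec were higher by 0.20 and 0.19. Plin2, Plin4, Fitm2 and Bscl2 differed by 0.06, -0.01, 0.06 and -0.07, which was less than the spread within groups for each of them. Plin3 and Hilpda were lower by this measure, with differences of -0.59 and -0.65. Neither gene was called by itself, so these differences largely restate the rise of the 4 adipocyte genes. The groups did not overlap for Cidea, Cidec, Plin3 and Hilpda (exact 2-sided permutation test, p = 0.1 and adjusted p = 0.25 over 10 genes for each). They overlapped for the other 6, with exact p of 0.2 for Plin1 and Plin5 (adjusted p = 0.333) and of 0.4 to 0.9 for the rest. How many of all genes tested would be apart by this measure was not counted. Against the whole list of 12 adipocyte markers in place of the 4 genes, the difference of Cidec was 0.08, that of Plin2 -0.06 and that of Fitm2 -0.05. The change of reference lowers the difference of every gene by the same amount, Plin1, Plin4 and Bscl2 included. Whether the share of differentiated cells has a part in these differences was not tested.

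**Figure D3:**
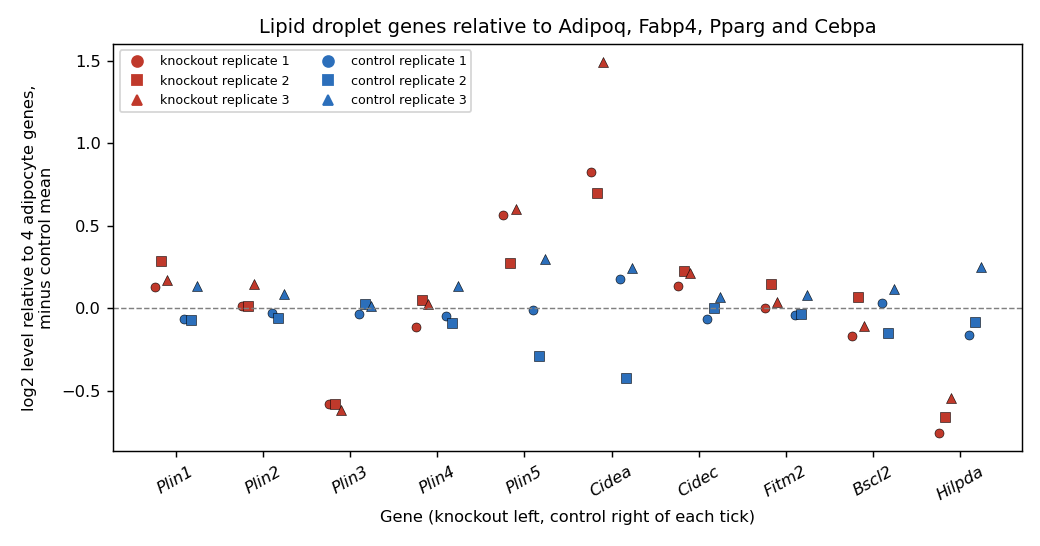
Level of each lipid droplet gene relative to the mean log2 level of Adipoq, Fabp4, Pparg and Cebpa in the same library, shown as the difference in log2 from the mean of the control libraries; knockout in red, control in blue. Cidea lies above (by 1.00 on average) and Plin3 and Hilpda lie below (by -0.59 and -0.65) their control libraries in every knockout library, while the points of Plin2, Plin4, Fitm2 and Bscl2 mix.

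Genes that work with the members were described from lists chosen by function, with earlier results of these data known. The count called in each list is to be read beside all genes tested, of which 11.9% were called higher and 10.5% lower. Of 13 genes of droplet lipases and their regulators, 9 rose, 0 fell and 4 were not called, with a median log2 fold change of 0.60. Ces1d, a carboxylesterase with triglyceride hydrolase activity whose counts are uncertain because of close paralogs, rose 2.48-fold (5.9 ± 0.61 CPM in knockout, 2.37 ± 0.238 CPM in control cells). Pnpla2, which encodes ATGL, the lipase that Hilpda and G0s2 inhibit, rose 1.95-fold (213 ± 26.8 CPM in knockout, 110 ± 12.9 CPM in control cells), and Pnpla3 rose 1.94-fold. Abhd5, the ATGL cofactor that Plin1 binds, and the inhibitor gene G0s2 were also called higher, 1.47-fold and 1.52-fold. Each of the 5 genes named here had an edgeR adjusted p of at most 0.000728.

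Of 15 genes of droplet formation and triglyceride supply 14 were tested, of which 8 rose, 0 fell and 6 were not called (median log2 fold change 0.20). The acyltransferase genes Agpat2 and Dgat2, which add the second and the last acyl chain to the glycerol backbone, rose 1.73-fold (868 ± 21.9 CPM in knockout, 503 ± 31.6 CPM in control cells) and 1.71-fold, and Acsl1, which activates fatty acids, rose 1.6-fold (edgeR adjusted p of at most 9.43e-07 for each). Tmem159, the seipin partner also called LDAF1, was not called, at 26.3 ± 1 CPM in knockout and 23.2 ± 0.704 CPM in control cells (edgeR adjusted p = 0.0617). Fitm1, the relative of Fitm2, did not reach the filter (0.102 CPM in knockout, 0.0343 CPM in control cells). Of 16 other proteins of the droplet surface, 8 rose, 0 fell and 8 were not called (median 0.24). Mettl7b rose 1.88-fold at a low level (2.06 ± 0.246 CPM in knockout, 1.09 ± 0.172 CPM in control cells), Clstn3 1.68-fold and Aifm2 1.59-fold (edgeR adjusted p of at most 0.00317 for each). Cideb, the liver relative of Cidea and Cidec, was low, at 1.42 ± 0.227 CPM in knockout and 0.909 ± 0.0614 CPM in control cells (log2 fold change 0.64, edgeR adjusted p = 0.0387).

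**Figure D4:**
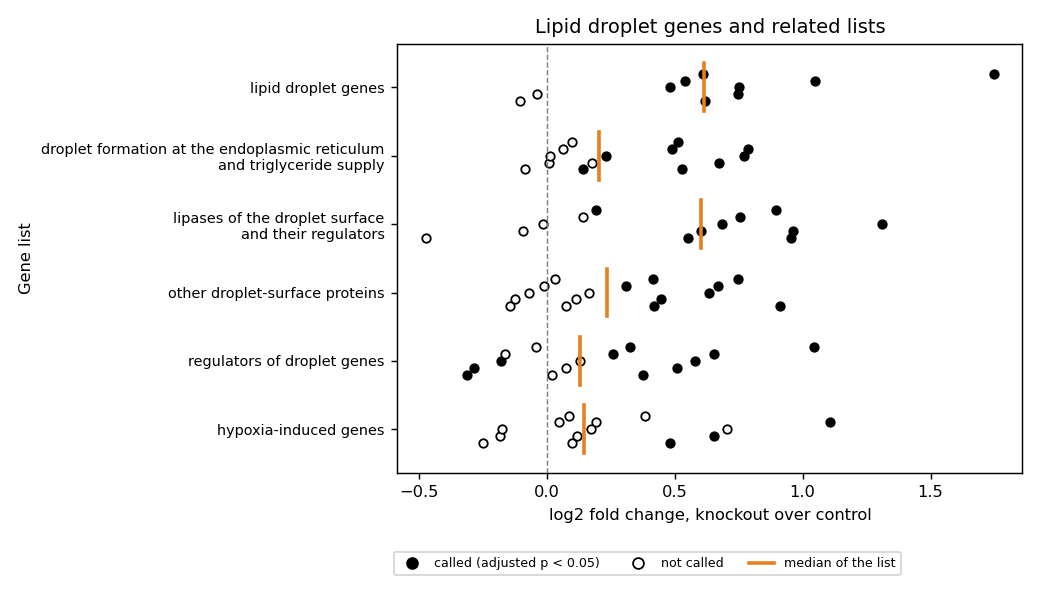
Log2 fold change (knockout over control) of each tested gene of the 10 lipid droplet genes and of 5 related lists; filled points are called at an adjusted p under 0.05, open points are not, and orange bars are medians. The medians are 0.62 for the lipid droplet genes, 0.20 for droplet formation, 0.60 for lipases, 0.24 for other surface proteins, 0.13 for regulators and 0.15 for hypoxia-induced genes.

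Of 15 regulators of droplet genes, 7 rose, 3 fell and 5 were not called (median log2 fold change 0.13). The shares over all genes tested were 11.9% higher and 10.5% lower. Ppara, a nuclear receptor that switches on Plin2, Plin5 and fatty acid oxidation genes, rose 2.065-fold, and was at 14.2 ± 0.842 CPM in knockout and 6.91 ± 0.334 CPM in control cells (edgeR adjusted p = 2.71e-06). Pparg, the adipocyte receptor for which Plin1, Cidec and Cidea are known targets, rose 1.25-fold (139 ± 8.77 CPM in knockout, 111 ± 4.65 CPM in control cells, edgeR adjusted p = 0.000797). The lipogenic factor gene Srebf1 rose 1.57-fold, and the coactivator gene Ppargc1a 1.5-fold (edgeR adjusted p = 0.0285). Ppargc1a lost its call on dropping control replicate 1, control replicate 2, knockout replicate 2 or knockout replicate 3 (then 0.141, 0.119, 0.0552 and 0.118 as adjusted p by edgeR; up to 1 over all alternatives). The hypoxia factor genes Hif1a and Epas1 fell 1.22-fold and 1.24-fold and the glucocorticoid receptor gene Nr3c1 1.13-fold (edgeR adjusted p of 0.000421, 0.0194 and 0.0124). Epas1 lost its call when control replicate 2, control replicate 3, knockout replicate 1 or knockout replicate 3 was dropped (then 0.0591, 0.0627, 0.0584 and 0.103 as adjusted p by edgeR; up to 1 over all alternatives).

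Because Hilpda is named for its induction by low oxygen, 14 other hypoxia-induced genes were read beside it. Of these, 3 rose, 0 fell and 11 were not called (median log2 fold change 0.15), while 11.9% of all genes tested were called higher and 10.5% lower. Egln3, a prolyl hydroxylase that marks HIF for decay, was 2.16-fold higher (69 ± 15 CPM in knockout, 32 ± 5.97 CPM in control cells; edgeR adjusted p = 0.0234), Ndrg1 1.57-fold and Pfkfb3 1.4-fold (adjusted p of at most 3.02e-05 for both). Egln3 was not called without knockout replicate 1 or 3 or with no filter on low counts (adjusted p of 0.0838, 0.0501 and 0.0772; up to 0.338 over all alternatives). Without control replicate 3 and knockout replicate 2 together, the 2 libraries that the second principal component sets apart, 7 of the 14 were called higher, and 13.6% of all genes tested in that fit were. In that fit the log2 fold change of Hilpda was 0.046 (adjusted p = 0.76), while Plin2 and Plin5 were called as before, with log2 fold changes of 0.69 and 1.31. For Hilpda, Plin2 and Plin5, the pair left out held the lowest knockout and the highest control library. The same held for hypoxia-induced genes such as Egln3, Pdk1, Vegfa and Slc2a1. Leaving the pair out raises the fold changes of such genes by construction, so the count of 7 is a description only.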

How the data were processed

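RNA was measured by stranded total RNA sequencing after ribosomal RNA depletion (TruSeq Stranded Total RNA with Ribo-Zero Gold, per the labels' protocols). The authors deposited whole-number read counts per gene, not normalized, for 49671 Ensembl gene identifiers in 6 libraries. The build GRCm38 and the tools featureCounts 1.5.1, STAR 2.5.2b and DESeq2 1.16.0 are listed, with no role, per the submitters' processing notes. For the annotation release, the strand setting and reads with several matches, the settings were not given in the sources used here. Totals were 26621293 to 33484764 counts per library, and every pair of libraries differed by more than sampling noise.

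Groups followed the treatment label, 3 libraries each. Counts were filtered with filterByExpr (14946 genes kept), scaled with TMM and fitted with the quasi-likelihood test of edgeR 4.0.16 (R 4.3.3) with group as the only term, and p-values were adjusted with the Benjamini-Hochberg method over all genes tested. The common biological coefficient of variation was 5.91%. Alternatives were other scalings, filters and thresholds, DESeq2 1.42.0, limma-voom (limma 3.58.1) and left-out libraries; the fit was also tested on simulated data. Log2 ratios within a library used CPM plus 0.5 and exact 2-sided permutation tests over libraries. Gene positions and exon lengths came from GENCODE M21, which held 49412 of the identifiers, and promoter windows from RefSeq.

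The lipid droplet genes and the other lists were chosen with earlier results of these data known. Genes named were all 10 lipid droplet genes, Tcf7l2, of each list up to 3 called genes per direction with the largest change, direct neighbours and genes sharing exonic bases, and the 3 genes nearest in pattern to each called gene, of which some are not reported here. Single marker genes, Abhd5, G0s2, Tmem159, Cideb, Pparg and Fitm1 were singled out after their values were seen.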

Additional observations from a re-analysis of the deposited data

How the results depend on the processing

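Of 128 values of the 8 called lipid droplet genes under the alternatives, 122 kept direction and call. The other 6 came from the edgeR test against a log2 fold change of 0.5, which by construction asks for more: Plin2 (log2 fold change 0.61, adjusted p = 0.294), Plin4 (0.54, 1), Plin5 (1.05, 0.125), Cidea (1.75, 0.076), Fitm2 (0.62, 0.115) and Bscl2 (0.48, 1) were not called, which left 2 of the 10. Hilpda changed sign without control replicate 3 (0.0075), and without that library and knockout replicate 2 together (0.046); with 1 library left out it ran from -0.16 to 0.0075. Over all genes 1105 were called higher and 829 lower at an adjusted p under 0.01, and 171 and 66 by the test against 0.5; leaving out 1 library gave 1222 to 1829 higher and 923 to 1646 lower, the fewest lower without control replicate 1 (923) and knockout replicate 3 (925). By the test against 0.5 the lists had 3 (formation), 1 (other surface), 1 (regulators) and 0 (hypoxia) genes higher and 0 regulators lower. For the lipase list this count is not given here, though Ldah, called higher in the main fit, had a log2 fold change of only 0.19. At 0.01, 1 regulator was lower. Rab8a among the other surface proteins was called lower (1 gene) with total count scaling, without control replicate 3 and without the pair, and P4ha1 among the hypoxia genes (1 gene) with no filter and without control replicate 2, so that with 1 library left out both counts ran from 0 to 1. Without the pair 7 hypoxia genes were higher. The Plin1 to Cidec log2 ratio reversed without control replicate 2 (-0.03) and knockout replicate 2 (-0.024), with a range of -0.03 to 0.039. Relative to all 12 adipocyte markers the differences were -0.057 for Plin2, -0.71 for Plin3, 0.079 for Cidec and -0.0505 for Fitm2; that of Plin4 ran from -0.057 to 0.056 with 1 library left out, above 0 without control replicate 3 (0.056) or knockout replicate 1 (0.038). With the longest transcript the Plin3 share differed by -2.91 percentage points. Of genes that are not members, Jagn1 (-0.014, -0.0057) and Hnrnpul2 (-0.011, -0.001) changed sign, Jagn1 without control replicate 3, Hnrnpul2 without knockout replicate 2 and both without the pair, with ranges of -0.014 to 0.11 and -0.011 to 0.088 with 1 library left out; of the 927 values of such genes 851 kept direction and call, 70 lost the call and 2 gained it. The share of calls that were higher was 53.1%, and 50.5% to 54.8% under the other scalings. The cause of these changes was not tested. No paired analysis was possible because no replicate number is shared between the groups in the labels. Cidea had the fewest counts of the lipid droplet genes, 43 to 289 per library.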

Other observations

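The genes that lie next to the lipid droplet genes on the chromosome were read in the same fit. Of 20 such neighbours that are not lipid droplet genes themselves, 16 were tested, of which 4 were called higher, 4 lower and 8 were not called (edgeR adjusted p under 0.05). Over all genes tested, 11.9% were called higher and 10.5% lower. Pex11a, a gene of peroxisome division that lies 3053 bases from Plin1 on the same strand, was at 42.0 ± 1.98 CPM in knockout and 27.3 ± 1.63 CPM in control cells (SD, n = 3 each) and rose 1.54-fold (log2 fold change 0.62, SE 0.064, edgeR adjusted p = 1.30e-05). Kif7, a kinesin of the primary cilium on the other side of Plin1, fell, at 16.8 ± 1.4 CPM in knockout and 21.3 ± 0.32 CPM in control cells (log2 fold change -0.35, SE 0.075, edgeR adjusted p = 0.00436). Lrg1, which encodes a secreted glycoprotein and lies 2081 bases from Plin5, rose 1.79-fold (12.5 ± 1.86 CPM in knockout and 7.03 ± 0.511 CPM in control cells, edgeR adjusted p = 0.000141), so that Plin4, Plin5 and Lrg1 are 3 risen genes in a row on the minus strand of chromosome 17. On the Plin4 side of this run Ubxn6 was not called, at 49.5 ± 2.07 CPM in knockout and 51.0 ± 0.829 CPM in control cells (edgeR adjusted p = 0.607), and neither was Hdgfl2, which shares 17 exonic bases with Plin4 on the opposite strand, at 53.4 ± 2.33 CPM in knockout and 56.5 ± 1.56 CPM in control cells (edgeR adjusted p = 0.331).

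Both neighbours of Cidea on chromosome 18 were called, in opposite directions. Impa2, an inositol monophosphatase gene, was 1.24-fold higher (15.99 ± 0.822 CPM in knockout and 12.8 ± 1.36 CPM in control cells, edgeR adjusted p = 0.0213), but lost its call on dropping knockout replicate 3, control replicate 1 or control replicate 2 (adjusted p, in this order, 0.0989, 0.0732 and 0.109; 0.00142 to 1 over all alternatives). The tubulin gene Tubb6 was at 177 ± 4.47 CPM in knockout and 208 ± 8.6 CPM in control cells (log2 fold change -0.23, edgeR adjusted p = 0.00327). Beside Fitm2, the scarce Gdap1l1 was at 1.04 ± 0.0766 CPM in knockout and 1.96 ± 0.24 CPM in control cells (log2 fold change -0.92, edgeR adjusted p = 0.00232). Impdh1, 56123 bases from Hilpda, was 1.29-fold higher (edgeR adjusted p = 0.00787), but not called without control replicate 1 (adjusted p = 0.0562; 3.58e-06 to 1 over all alternatives). Lrrn4cl beside Bscl2 had an edgeR adjusted p of 0.046 (log2 fold change -0.18) and lost its call in most alternatives tried, with adjusted p of up to 1.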
